A study of Homo sapiens with 7 samples.

Results

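The genes described here code for histones, the proteins around which DNA is wound. They were taken by name from the deposited expression table: every row whose name starts with HIST1H, HIST2H, HIST3H or HIST4H, or with H1F, H2AF or H3F followed by a letter or digit. Names ending in P and digits were left out, which removed 2 rows. This gave 58 of the 19775 listed genes. Of these, 44 were protein-coding genes of the histone clusters, 10 were protein-coding genes of histone variants, 3 were clustered pseudogenes and 1 was the antisense RNA H1FX-AS1.

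The cells were wild-type H1, an established human embryonic stem cell line, and the study asks what inhibition of the kinase ERK5 does to them. They received XMD892, an ERK5 inhibitor, at 1 µM in E8 medium for 12 h (1 library), 24 h (2 libraries) or 48 h (2 libraries). The controls were H1 cells in E8 medium for 48 h without the compound (2 libraries). E8 is a defined medium with insulin, FGF2 and TGFβ, which all groups shared. No vehicle is named for the controls, and only the 48 h group matches them in time, so at 12 h and 24 h the compound and the time in culture cannot be told apart. All libraries come from 1 line, and the labels do not tell whether replicates are separate cultures: the spread behind each p-value may be technical.

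Replication-dependent histones are made in S phase, when new DNA needs new nucleosomes. Their genes lie in clusters, mostly lack introns, and give the only animal mRNAs that normally end without a poly(A) tail. Such an mRNA ends just past a short stem-loop, which is bound by the protein SLBP and cut with the help of U7 small nuclear RNA. Variant histones such as H3.3 and H2A.Z come from lone genes with introns and polyadenylated mRNAs, and are made throughout the cell cycle. Some clustered genes also give longer, polyadenylated RNAs, which are known from cells that have left the cycle or begun to differentiate. The libraries here were made from RNA selected with oligo(dT), which binds poly(A) tails. The values therefore do not measure the total RNA of clustered histone genes, and a share of tailed RNA cannot be told apart from carry-over of RNA without a tail.

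The annotated transcripts were searched over their whole length for the stem-loop as GGNNNTTNTNANNNCC on the sense strand. A match was found in 23 of the 44 clustered genes, against 6.43% of all protein-coding genes. The share of all genes therefore counts a match at any place in a transcript, and is no rate of stem-loops at 3′ ends. The gene models of 18 clustered genes hold coding sequence only, and among the 26 others the match was found in 23. Of the 10 variant genes, 1 had it, namely H2AFX, the H2A variant phosphorylated at DNA breaks. The stem-loops below are those found in the clustered genes whose values are given library by library, with H2AFX for comparison. Capitals mark the 16 bases of the match, and 5 bases of transcript stand on either side (GENCODE 29 transcripts).

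HIST1H2AC: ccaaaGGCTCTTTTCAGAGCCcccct

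HIST1H2AE: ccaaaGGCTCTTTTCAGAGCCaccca

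HIST1H2AI: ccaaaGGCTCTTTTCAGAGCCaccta

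HIST3H2A: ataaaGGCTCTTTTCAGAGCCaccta

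HIST1H2BC: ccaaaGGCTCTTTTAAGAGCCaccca

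HIST1H2BD: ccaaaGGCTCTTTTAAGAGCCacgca

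HIST1H2BG: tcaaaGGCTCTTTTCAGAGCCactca

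HIST1H2BH: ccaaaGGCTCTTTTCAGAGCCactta

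HIST2H2BE: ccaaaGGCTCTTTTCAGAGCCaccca

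HIST3H2BB: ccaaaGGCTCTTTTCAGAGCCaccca

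HIST1H3H: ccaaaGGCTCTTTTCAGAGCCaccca

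HIST1H4H: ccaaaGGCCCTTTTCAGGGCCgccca

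HIST1H4I: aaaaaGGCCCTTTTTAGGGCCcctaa

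H2AFX: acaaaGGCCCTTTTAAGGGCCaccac

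The form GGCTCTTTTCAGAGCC stood in 13 of the 23 clustered genes. The first 5 bases were GGCCC in all 5 H4 genes with a match and GGCTC in all 5 H2A, 10 H2B and 3 H3 genes with one. No stem-loop is given for HIST1H1C, HIST1H3A and HIST2H2AC, whose models end at the stop codon. Annotated transcripts ran past the stem-loop by over 100 bases, or were spliced, in 21 of the 44 clustered genes. The poly(A) signals AATAAA or ATTAAA stood in the last 40 bases of a protein-coding transcript in 17 of the 44 clustered genes and in 8 of the 10 variant genes, against 80.8% of all protein-coding genes. Counted by transcript, they stood in 32.7% of clustered and 31.2% of variant transcripts, against 42.9% of all protein-coding transcripts.

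Promoters were read from 250 bases before to 50 bases after the RefSeq start (GRCh38.p14), which was available for 51 members. They were searched on both strands for TATAAA, the TATA box, CCAAT, the box bound by NF-Y, ATTTGCAT, the octamer bound by OCT1 and other POU factors, and GGTCC, which belongs to the H4 promoter element bound by HINFP. Matches could overlap and were counted for each motif. Over all 35116 RefSeq promoters, 11.5% held TATAAA, 34.6% CCAAT, 1.77% ATTTGCAT and 46.3% GGTCC. Of the 42 clustered promoters, 66.7% held TATAAA, 85.7% CCAAT, 35.7% ATTTGCAT and 38.1% GGTCC. Of the 9 variant promoters, 44.4% held TATAAA, 77.8% CCAAT, 11.1% ATTTGCAT and 44.4% GGTCC. The octamer was in 6 of 8 H2A and 9 of 13 H2B promoters and in none of the H1, H3 and H4 promoters. GGTCC was in 7 of 7 H4 promoters, and CCAAT in only 1 of those. The 3 promoters below belong to the clustered genes with the largest differences at 12 h, and that of H2AFX is the variant with a stem-loop. Capitals mark motif matches.

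HIST1H2AC, chr6:26123922-26124221, plus strand: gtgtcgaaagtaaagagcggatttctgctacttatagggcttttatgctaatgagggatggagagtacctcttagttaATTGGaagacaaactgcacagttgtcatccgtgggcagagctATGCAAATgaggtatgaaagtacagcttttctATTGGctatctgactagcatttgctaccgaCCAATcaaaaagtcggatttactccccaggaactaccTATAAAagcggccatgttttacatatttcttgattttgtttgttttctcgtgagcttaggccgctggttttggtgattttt

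HIST1H2BD, chr6:26157872-26158171, plus strand: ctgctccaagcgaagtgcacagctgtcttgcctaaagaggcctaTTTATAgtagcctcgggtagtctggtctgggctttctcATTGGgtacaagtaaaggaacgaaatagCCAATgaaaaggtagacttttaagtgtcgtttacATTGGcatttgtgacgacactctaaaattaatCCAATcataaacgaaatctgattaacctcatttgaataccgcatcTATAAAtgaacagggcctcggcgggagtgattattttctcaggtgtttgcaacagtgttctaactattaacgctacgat

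HIST1H4H, chr6:26285485-26285784, minus strand: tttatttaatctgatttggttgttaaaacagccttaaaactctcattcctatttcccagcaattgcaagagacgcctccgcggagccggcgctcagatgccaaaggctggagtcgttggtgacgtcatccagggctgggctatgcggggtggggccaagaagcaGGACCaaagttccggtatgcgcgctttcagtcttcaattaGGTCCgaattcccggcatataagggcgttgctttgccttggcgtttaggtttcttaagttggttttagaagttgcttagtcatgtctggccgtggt

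H2AFX, chr11:119095416-119095715, minus strand: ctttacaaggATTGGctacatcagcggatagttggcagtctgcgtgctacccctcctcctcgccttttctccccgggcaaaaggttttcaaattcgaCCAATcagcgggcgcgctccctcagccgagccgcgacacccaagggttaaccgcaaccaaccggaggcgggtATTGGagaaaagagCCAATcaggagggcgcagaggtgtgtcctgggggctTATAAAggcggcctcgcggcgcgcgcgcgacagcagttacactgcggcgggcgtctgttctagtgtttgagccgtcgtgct

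Values are normalised read counts, that is, reads per gene divided by the authors by 1 factor per library, and the listed genes held 18528689 to 24148186 reads per library. The sum of 10 pluripotency markers lay between 194390 and 216260 in the XMD892 libraries and at 200860 and 228730 in E8, with POU5F1, which encodes OCT4, at 42270 to 67880 with XMD892 and at 46010 and 67030 in E8. Of the 10, 3 were below both E8 libraries in every XMD892 library and 0 above: NANOG at 2552 to 4138 with XMD892, against 6631 and 5818 in E8, TDGF1 at 6213 to 7791, against 11880 and 10250, and DPPA4 at 17730 to 20590, against 24610 and 20890. LHX2, TFAP2A and GATA4, which mark other lineages, reached at most 6, 7 and 4 with XMD892, against 3, 6 and 14 in E8. Other neuroectoderm markers had higher values. NCAM1 was at 314 to 536 with XMD892, against 196 and 211 in E8, and SOX1 at 43.7 to 111, against 33.2 and 48.8. SIX3 was at 307 to 495, against 718 and 728, and OTX2 at 29.2 to 137, against 227 and 198. The sum of 5 mesendoderm markers was 162 to 199 with XMD892, against 918 and 1094 in E8. That of 3 mesoderm markers was 987 to 1285, against 2793 and 2571. KDR alone was at 960 to 1258, against 2743 and 2527. The sum of 4 trophoblast and amnion markers was 132 to 227, against 341 and 356. The part of these in the histone results was not tested. Transcript GC content separated the E8 libraries: the difference between them had a Spearman rho of 0.643 with it across 16023 genes, against 0.00 at 24 h and -0.21 at 48 h. RN7SL2, the RNA of the signal recognition particle, which has no poly(A) tail, was at 5968 at 12 h, 35430 and 14870 at 24 h, 11480 and 11990 at 48 h, and 1080 and 29260 in E8. SNORA73B, which also has no poly(A) tail, was at 54.1 and 46.3 in E8. The summed clustered histone value in the same E8 libraries was 1319 and 1424.

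Summed over the class, clustered histone RNAs were higher in every XMD892 library than in E8, and highest at 12 h. The 44 clustered genes summed to 3947 at 12 h, to 2435 and 3641 at 24 h, to 2275 and 2462 at 48 h, and to 1319 and 1424 in E8. The 24 h libraries differed from each other more than the others did. On the log2 scale the sum stood 1.53 above E8 at 12 h, 1.15 at 24 h and 0.79 at 48 h. At 24 h it was 0.83 without replicate 2 and 1.41 without replicate 1. In bulk RNA, more cells of a kind and more RNA per cell cannot be told apart.

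The 10 variant genes summed to far more: 53410 at 12 h, 62438 and 65001 at 24 h, 61944 and 65255 at 48 h, and 46387 and 54117 in E8. The 12 h library lay between the E8 libraries, and those of 24 h and 48 h above them. Per 1000 of the variant sum, the clustered sum was 73.9 at 12 h, 39.0 and 56.0 at 24 h, 36.7 and 37.7 at 48 h, and 28.4 and 26.3 in E8. These sums are descriptions with no test, and HIST3H2A, HIST1H2AC and HIST1H4H held 13.7%, 13.3% and 11.2% of the clustered sum. Without HIST3H2A, the clustered sum was 3588 at 12 h, 2138 and 3137 at 24 h, 1998 and 2098 at 48 h, and 1076 and 1068 in E8.

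**Figure D1:**
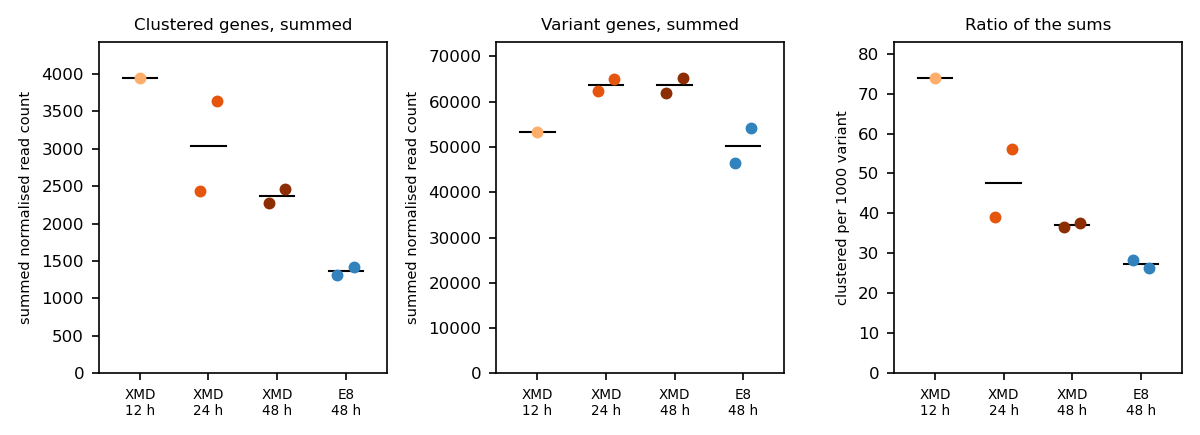
Summed normalised read counts of the 44 clustered (left) and 10 variant (middle) histone genes and their ratio (right) in each library, with XMD892 for 12, 24 and 48 h and then E8; points are libraries and lines group means. The clustered sum was 3947 at 12 h and at most 1424 in E8, and the variant sum lay between 46387 and 65255 in all 7 libraries.

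Tests used limma on log2 values after adding 1, for the 16351 genes whose mean over all libraries reached 10. Genes with an adjusted p under 0.05 (Benjamini-Hochberg) were called. Of the 58 members 43 were tested, among them 30 clustered and all 10 variant genes. The last clustered genes to miss the filter were HIST1H1E at 8.05 and HIST1H3D at 8.97, and the first to pass were HIST1H4K at 10.3 and HIST1H3B at 10.5. The 3 comparisons with E8 share both E8 libraries.

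At 12 h, 12 of the 30 tested clustered genes were called higher and 0 lower, where 7.46% of all tested genes were called, 2.56% higher and 4.89% lower. At 24 h, 13 were called higher and 0 lower, against 16.2% of all tested genes, 8.66% higher and 7.56% lower. At 48 h, 10 were called higher and 0 lower, against 11.5% of all tested genes, 5.08% higher and 6.45% lower. Their median log2 fold change was 1.36 at 12 h, 0.91 at 24 h and 0.71 at 48 h, where that of all tested genes was 0.02, 0.01 and 0.02. None was lower at any of the 3 times at an unadjusted p under 0.05 by limma, or called lower by edgeR or DESeq2 on whole reads. The log2 fold change over E8 was highest at 12 h for 20 of the 30 genes, at 24 h for 5 and at 48 h for 5. The 12 h values rest on 1 library and have larger errors, and the same count was not made for all tested genes. Of the 30 genes, 26, 20 and 21 had every XMD892 library of the 12 h, 24 h and 48 h group above both E8 libraries, against 37.1%, 29.8% and 27.3% of all tested genes.

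The filter lets in genes through their XMD892 libraries, since 8 of the 30 had an E8 mean under 10. A filter on the E8 mean instead, added after seeing the data, left 23 clustered genes. Of these, 11, 12 and 7 were called higher at 12 h, 24 h and 48 h, and 0 lower at any time. Of all genes, 413, 1398 and 810 were then called higher. With no filter, 12, 11 and 10 of all 44 clustered genes were called higher and 0 lower, with medians of 1.24, 0.79 and 0.68. Of all 19775 genes, 392, 1363 and 789 were then called higher. A filter raised to 50 left 12 clustered genes, of which 6 were called higher at 48 h, where 800 of all genes were called higher. The clustered median at 24 h was 0.68 without XMD892 24 h replicate 2. At 48 h it was 0.93 without XMD892 48 h replicate 1 and 0.76 without replicate 2. In each of these fits fewer clustered genes, and fewer of all tested genes, were called higher than with all libraries.

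**Figure D2:**
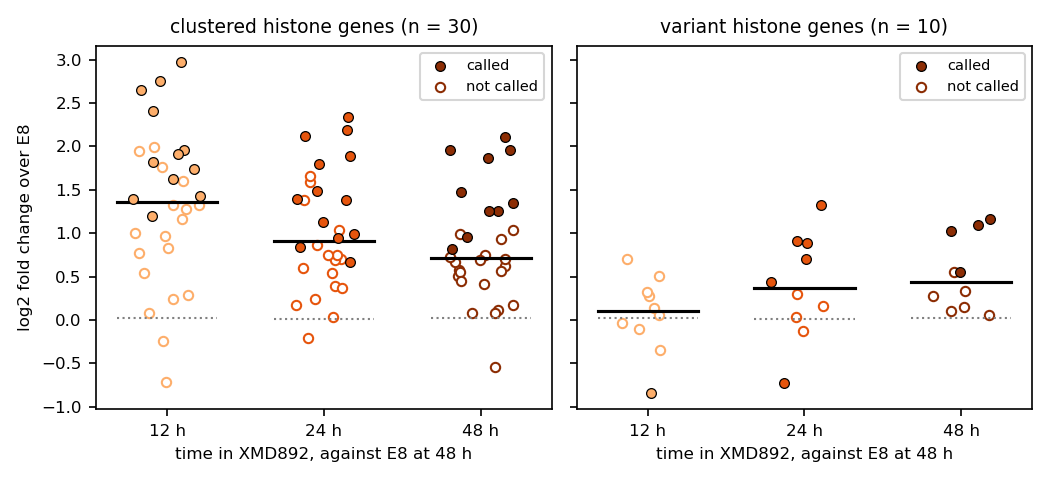
Log2 fold change over E8 of each tested clustered (left, n = 30) and variant (right, n = 10) histone gene after 12, 24 and 48 h of XMD892; filled points were called at an adjusted p under 0.05, black lines are medians of the genes shown and dotted lines medians of all tested genes. The clustered medians were 1.36, 0.91 and 0.71, and the variant medians 0.10, 0.37 and 0.44.

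Among the core histones, H2A and H2B form dimers, and many of their clustered genes stand head to head. Of 6 tested clustered H2A genes, 3, 3 and 4 were called higher at 12 h, 24 h and 48 h. HIST1H2AC (chr6:26124145-26139116, hg38) was at 666 at 12 h, 369 and 579 at 24 h, 246 and 263 at 48 h, and 115 and 96.7 in E8. All XMD892 libraries lay above E8, and those of 24 h above those of 48 h. Its log2 fold change over E8 was 2.65 ± 0.26 (SE) at 12 h, 2.12 ± 0.21 at 24 h and 1.26 ± 0.21 at 48 h (limma adjusted p = 7.3e-07, 8.2e-07 and 0.00037).

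HIST1H2AE, a gene of low level, was at 25.8 at 12 h, 27.1 and 19.6 at 24 h, 28.1 and 23.8 at 48 h, and 6.98 and 4.96 in E8. The XMD892 groups overlapped each other and not E8, with log2 fold changes of 1.96 ± 0.58, 1.80 ± 0.47 and 1.96 ± 0.47 (limma adjusted p = 0.041, 0.013 and 0.0088). HIST1H2AI was at 16.1 at 12 h, 9.37 and 16.8 at 24 h, 23.8 and 12.9 at 48 h, and 2.62 and 4.13 in E8. It stayed above E8 in every XMD892 library but was called at 48 h alone (2.11 ± 0.60, limma adjusted p = 0.026), with limma adjusted p = 0.10 at 12 h and 0.065 at 24 h.

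HIST2H2AC was at 30.1 at 12 h, 28.1 and 36.5 at 24 h, 68.0 and 70.4 at 48 h, and 26.2 and 30.6 in E8. It overlapped E8 at 12 h and 24 h and was above it at 48 h (1.26 ± 0.33, limma adjusted p = 0.016). The difference between 48 h and 24 h, 1.09 ± 0.33, was not called (limma adjusted p = 0.13). HIST1H2AG ranged from 108 to 210 with XMD892, against 77.7 to 81.2 in E8, and was called at 12 h and 24 h. HIST3H2A, the clustered gene with the highest mean, was at 360 at 12 h, 297 and 504 at 24 h, 278 and 364 at 48 h, and 244 and 355 in E8. It was not called at any time, and its 95% interval reached from -0.30 to 0.88 at 12 h, from -0.09 to 0.88 at 24 h and from -0.37 to 0.59 at 48 h (log2).

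Of 11 tested H2B genes, 5, 6 and 2 were called higher at 12 h, 24 h and 48 h. HIST1H2BD (chr6:26158146-26171349) was at 234 at 12 h, 154 and 160 at 24 h, 130 and 122 at 48 h, and 30.6 and 37.2 in E8. The 3 XMD892 groups did not overlap each other or E8. Its log2 fold change was 2.76 ± 0.29, 2.19 ± 0.23 and 1.87 ± 0.23 (limma adjusted p = 1.9e-06, 2.2e-06 and 1.5e-05).

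HIST1H2BH was at 277 at 12 h, 158 and 228 at 24 h, 239 and 188 at 48 h, and 125 and 115 in E8. It was called at every time, at 1.20 ± 0.27, 0.66 ± 0.22 and 0.82 ± 0.22 (limma adjusted p = 0.0071, 0.042 and 0.017). HIST1H2BG was at 33.3 at 12 h, 28.1 and 43.0 at 24 h, 20.5 and 30.7 at 48 h, and 14.0 and 11.6 in E8. Every XMD892 library was above E8, and the call fell at 24 h only (1.38 ± 0.42, limma adjusted p = 0.027). HIST3H2BB was at 75.1 at 12 h, 45.8 and 50.5 at 24 h, 37.8 and 43.6 at 48 h, and 29.7 and 19.0 in E8. It was called at 12 h (1.62 ± 0.41, limma adjusted p = 0.017) and 24 h (0.99 ± 0.33, limma adjusted p = 0.048), but the 24 h call was lost in 15 of 22 alternatives, edgeR and DESeq2 on whole reads among them (adjusted p from 0.03 to 0.35 over the 22).

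HIST1H2BJ ranged from 23.8 to 94.5 with XMD892, against 16.6 and 17.4 in E8. HIST1H2BK ranged from 97.9 to 232, against 57.6 and 73.5. Both were called at 12 h and 24 h and not at 48 h. HIST2H2BE was at 157 at 12 h, 92.7 and 127 at 24 h, 155 and 122 at 48 h, and 95.2 and 88.4 in E8, and was not called.

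In 5 head-to-head H2A and H2B pairs both genes were tested, a comparison chosen after their values were seen. Over the 3 times, both genes were called in 3 of 15 cases, 1 gene in 8 and neither in 4. HIST1H2BJ and HIST1H2AG gave the same call at every time, and HIST1H2BG and HIST1H2AE were both called at 24 h. HIST1H2AC, whose start lies 219 bases from that of HIST1H2BC, was called at all 3 times. HIST1H2BC was at 25.8 at 12 h, 13.5 and 21.5 at 24 h, 14.0 and 20.8 at 48 h, and 5.24 and 11.6 in E8, and was not called (log2 fold change 1.60, 1.03 and 1.03). HIST3H2BB, called at 12 h and 24 h, starts 234 bases from HIST3H2A, which was not called. HIST2H2AC, called at 48 h, starts 323 bases from HIST2H2BE, which was not. The difference within a pair was not tested.

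H3 and H4 form the tetramer at the centre of the nucleosome. Of 6 tested clustered H3 genes, 2 were called higher at each time. HIST1H3H was at 128 at 12 h, 102 and 199 at 24 h, 107 and 88.3 at 48 h, and 42.8 and 33.1 in E8. No XMD892 library overlapped E8, and its log2 fold change was 1.74 ± 0.36, 1.90 ± 0.29 and 1.35 ± 0.29 (limma adjusted p = 0.0039, 0.00018 and 0.004). HIST1H3A was at 21.5 at 12 h, 9.37 and 21.5 at 24 h, 18.4 and 25.8 at 48 h, and 3.49 and 6.61 in E8, and was called at 48 h (1.96 ± 0.56, limma adjusted p = 0.025). HIST1H3G ranged from 69.4 to 181 with XMD892, against 33.1 and 68.1 in E8, and was called at 12 h and 24 h.

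Of 6 tested H4 genes, 2 were called higher at each time. HIST1H4H (chr6:26277609-26285638) was at 597 at 12 h, 325 and 458 at 24 h, 193 and 230 at 48 h, and 75.1 and 75.2 in E8. Its 12 h value was above those of 24 h, these above 48 h, and all above E8. It had the largest log2 fold change of the clustered genes at 12 h (2.97 ± 0.25, limma adjusted p = 1.2e-07) and 24 h (2.35 ± 0.21, limma adjusted p = 1.4e-07), with 1.48 ± 0.21 at 48 h (limma adjusted p = 5.2e-05). HIST1H4I was at 133 at 12 h, 75.0 and 104 at 24 h, 90.7 and 101 at 48 h, and 48.0 and 49.6 in E8. It was called at every time, at 1.43 ± 0.32, 0.84 ± 0.26 and 0.96 ± 0.26 (limma adjusted p = 0.0068, 0.03 and 0.018).

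Linker histone H1 binds where DNA enters and leaves the nucleosome. Of 5 clustered H1 genes only HIST1H1C was tested. It was at 109 at 12 h, 122 and 123 at 24 h, 86.4 and 132 at 48 h, and 66.4 and 85.1 in E8. Every XMD892 library was above both E8 libraries, yet it was not called (log2 fold change 0.54 ± 0.31, 0.70 ± 0.25 and 0.50 ± 0.25, limma adjusted p = 0.32, 0.063 and 0.21).

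Some calls of clustered genes rested on 1 library or on the tool. DESeq2 on whole reads did not call HIST1H2AE at 12 h, HIST1H2BG, HIST1H2BH and HIST1H4I at 24 h, or HIST1H3A and HIST1H2AI at 48 h. At 12 h, HIST1H2AE was not called without E8 replicate 2 or either 48 h replicate (limma adjusted p = 0.052, 0.061 and 0.055), and the lone 12 h library cannot be left out. At 24 h, without XMD892 24 h replicate 2, HIST3H2BB, HIST1H2BG, HIST1H2BH, HIST1H2BJ, HIST1H2BK and HIST1H4I were not called (limma adjusted p from 0.19 to 0.43), with log2 fold changes of 0.40 for HIST1H2BH, 0.89 for HIST1H2BJ and 0.58 for HIST1H2BK, against 0.66, 1.48 and 0.95 with it. HIST1H3G was at 0.88 at 24 h without E8 replicate 2, against 1.39 with it, and was still called. Without 24 h replicate 1, HIST3H2BB and HIST1H2AE were not (limma adjusted p = 0.14 and 0.13). HIST1H4I and HIST1H2BK were not called at 24 h without E8 replicate 1 (limma adjusted p = 0.078 and 0.075), nor HIST3H2BB, HIST1H2BG and HIST1H2BH without E8 replicate 2 (0.19, 0.053 and 0.053). HIST3H2BB and HIST1H2BH also missed the threshold at 24 h without either 48 h replicate (limma adjusted p from 0.051 to 0.06). At 48 h, without XMD892 48 h replicate 1, HIST2H2AC, HIST1H2AE, HIST1H2AI, HIST1H2BH, HIST1H3A, HIST1H3H and HIST1H4I were not called (limma adjusted p from 0.06 to 0.26), and without replicate 2 HIST2H2AC, HIST1H2AI, HIST1H3A and HIST1H4I were not (0.052 to 0.18). Without E8 replicate 1, HIST2H2AC, HIST1H2AI and HIST1H3A were not called at 48 h (limma adjusted p = 0.066, 0.093 and 0.12).

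**Figure D3:**
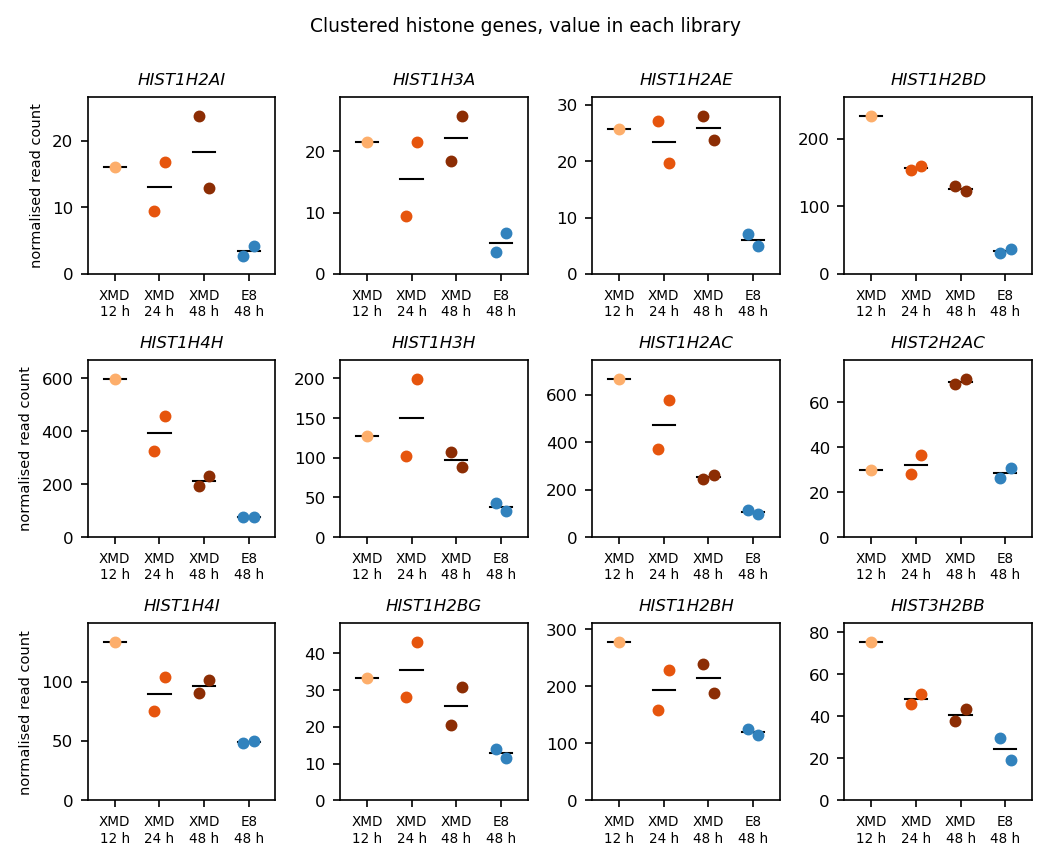
Normalised read count of 12 clustered histone genes in each library, with XMD892 for 12 h (1 library), 24 h and 48 h (2 libraries each) and then E8 (2 libraries); points are libraries, lines are group means, and each panel has its own axis from 0. HIST1H4H was at 597 at 12 h and at 75.1 and 75.2 in E8, while HIST2H2AC overlapped E8 except at 48 h.

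The 14 clustered genes below the filter summed to 96.6 at 12 h, 59.4 and 95.4 at 24 h, 85.3 and 84.3 at 48 h, and 47.1 and 70.2 in E8. Of the 3 clustered pseudogenes, HIST2H2BC was at 49.4 at 12 h, 47.9 and 50.5 at 24 h, 21.6 and 18.8 at 48 h, and 9.60 and 15.7 in E8. It was called higher at 12 h (1.92 ± 0.48, limma adjusted p = 0.017) and 24 h (1.92 ± 0.40, limma adjusted p = 0.0025). HIST1H2APS4 was not called, and HIST3H2BA was below the filter. Histone genes of a family are near-identical in coding sequence. How the authors counted reads shared between genes is not given, so the split of reads between members is uncertain.

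Of the 19 tested clustered genes with an annotated transcript that is spliced or reaches past the stem-loop, 10, 11 and 6 were called higher at 12 h, 24 h and 48 h, with medians of 1.43, 0.99 and 0.72. Of the 11 without one, 2, 2 and 4 were called higher, with medians of 0.96, 0.75 and 0.70. Calls also went with level. Of the 15 tested clustered genes with the higher means, 11, 11 and 7 were called higher, with medians of 1.62, 0.99 and 0.75. Of the 15 with the lower means, 1, 2 and 3 were, with medians of 1.28, 0.75 and 0.63. The groups of neither split were tested against each other, and the parts of transcript form and level were not separated. Levels per kilobase of annotated exon, averaged over all libraries, were highest among clustered genes for HIST3H2A (383), HIST1H2BK (314), HIST1H2AC (200) and HIST1H1C (161). The values of HIST1H2BK and HIST1H1C come from coding-only models.

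Per kilobase, the variants ranged from 154 for H2AFY and 241 for H2AFY2 to 4675 for H2AFZ and 5209 for H2AFX. HIST3H2A thus stood above both macroH2A genes on this scale, though the exons of H2AFY span 17730 bases over all its annotated transcripts.

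Variant genes moved in both directions. Of the 10, 0 were called higher and 1 lower at 12 h, 5 higher and 1 lower at 24 h, and 4 higher and 0 lower at 48 h, against the shares of all tested genes given above. At an unadjusted p under 0.05, limma had 2 higher at 12 h and 0 lower at 48 h, and edgeR and DESeq2 on whole reads called 0 of either. Their median log2 fold change was 0.10, 0.37 and 0.44. At 48 h the median was 0.50 without E8 replicate 2 and 0.23 without E8 replicate 1. More variants, and more of all tested genes, were called higher at 48 h without E8 replicate 2 than with it.

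H3F3A and H3F3B both encode H3.3, which replaces H3 outside replication. H3F3A was at 8713 at 12 h, 10000 and 10324 at 24 h, 11741 and 11420 at 48 h, and 11044 and 11192 in E8. H3F3B was at 13123 at 12 h, 12956 and 12894 at 24 h, 13604 and 12952 at 48 h, and 9900 and 11220 in E8. H3F3A stood below E8 at 12 h and 24 h and H3F3B above it at every time, but neither was called. The 95% intervals at 48 h reached from -0.22 to 0.34 for H3F3A and from 0.05 to 0.62 for H3F3B (log2).

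H2AFZ and H2AFV encode the H2A.Z proteins, which mark promoters. H2AFZ was at 11042 at 12 h, 11392 and 11157 at 24 h, 10733 and 10826 at 48 h, and 9055 and 11165 in E8, and was not called (interval at 48 h from -0.20 to 0.40). H2AFV was at 3223 at 12 h, 4212 and 4157 at 24 h, 4498 and 4574 at 48 h, and 3035 and 3146 in E8. It was above E8 in all XMD892 libraries and called at 24 h (0.44 ± 0.14, limma adjusted p = 0.033) and 48 h (0.55 ± 0.14, limma adjusted p = 0.011). The 24 h call was lost without any 1 XMD892 library of 24 h or 48 h (limma adjusted p from 0.06 to 0.26), and the 48 h call without either 48 h library (0.092 and 0.099).

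H2AFY and H2AFY2 encode the macroH2A proteins, H2A variants with a large extra domain, found on the inactive X chromosome and other silent chromatin. H2AFY was at 2405 at 12 h, 3163 and 3221 at 24 h, 3325 and 3578 at 48 h, and 1587 and 1803 in E8. It lay above E8 at every time and was called at 24 h (0.92 ± 0.14, limma adjusted p = 0.0002) and 48 h (1.03 ± 0.14, limma adjusted p = 4.9e-05). H2AFY2 was at 311 at 12 h, 334 and 340 at 24 h, 650 and 584 at 48 h, and 486 and 638 in E8. It was lower than E8 at 12 h (-0.84 ± 0.22, limma adjusted p = 0.019) and 24 h (-0.72 ± 0.18, limma adjusted p = 0.008), and overlapped E8 at 48 h (0.15 ± 0.18, limma adjusted p = 0.65). Without XMD892 24 h replicate 1, the 24 h value of H2AFY2 had limma adjusted p = 0.056.

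H2AFX was at 7991 at 12 h, 10332 and 11230 at 24 h, 7325 and 8725 at 48 h, and 6233 and 7018 in E8. It was called higher at 24 h only (0.70 ± 0.14, limma adjusted p = 0.0023). With the trend along GC content removed the value was 0.40, still called, and with E8 replicate 2 also left out it was 0.25 and not called (limma adjusted p = 0.20). H2AFJ, an H2A variant gene that lies beside HIST4H4 on chromosome 12, was at 1495 at 12 h, 2281 and 2342 at 24 h, 2096 and 2046 at 48 h, and 623 and 1363 in E8. It was called at 24 h (1.33 ± 0.22, limma adjusted p = 0.00049) and 48 h (1.17 ± 0.22, limma adjusted p = 0.0015). Its E8 libraries differed from each other by more than those of 24 h or 48 h did, and DESeq2 on whole reads did not call it at 48 h. Without E8 replicate 1, its log2 fold change was 0.76 at 24 h and 0.60 at 48 h, still called by limma.

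H1F0 encodes H1.0, the linker histone known to accumulate in cells that stop dividing. It was at 1743 at 12 h, 1484 and 2222 at 24 h, 3878 and 3708 at 48 h, and 1554 and 2038 in E8. It overlapped E8 at 12 h and 24 h and was higher at 48 h (1.09 ± 0.18, limma adjusted p = 0.00028). H1FX, another linker histone variant gene, was at 3364 at 12 h, 6284 and 7114 at 24 h, 4095 and 6841 at 48 h, and 2871 and 4534 in E8. It was called at 24 h (0.89 ± 0.21, limma adjusted p = 0.0056) and overlapped E8 at 48 h. The 24 h value was 0.56 without E8 replicate 1 and 0.56 with the GC trend removed, called in both, 0.49 and not called with both changes, and DESeq2 on whole reads did not call it. Its antisense RNA H1FX-AS1 ranged from 52.9 to 80.3 with XMD892, against 41.9 and 93.4 in E8, and was not called. The strand setting of the counting is not given, so reads of H1FX and H1FX-AS1, or of H2AFY2 and the overlapping AIFM2, cannot be told apart. H2AFY, H2AFZ, H3F3A and H3F3B also overlap exons of genes on the opposite strand, and the same limit holds for them. It holds too for HIST1H2BE, HIST1H2BN and the pseudogene HIST2H2BC.

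**Figure D4:**
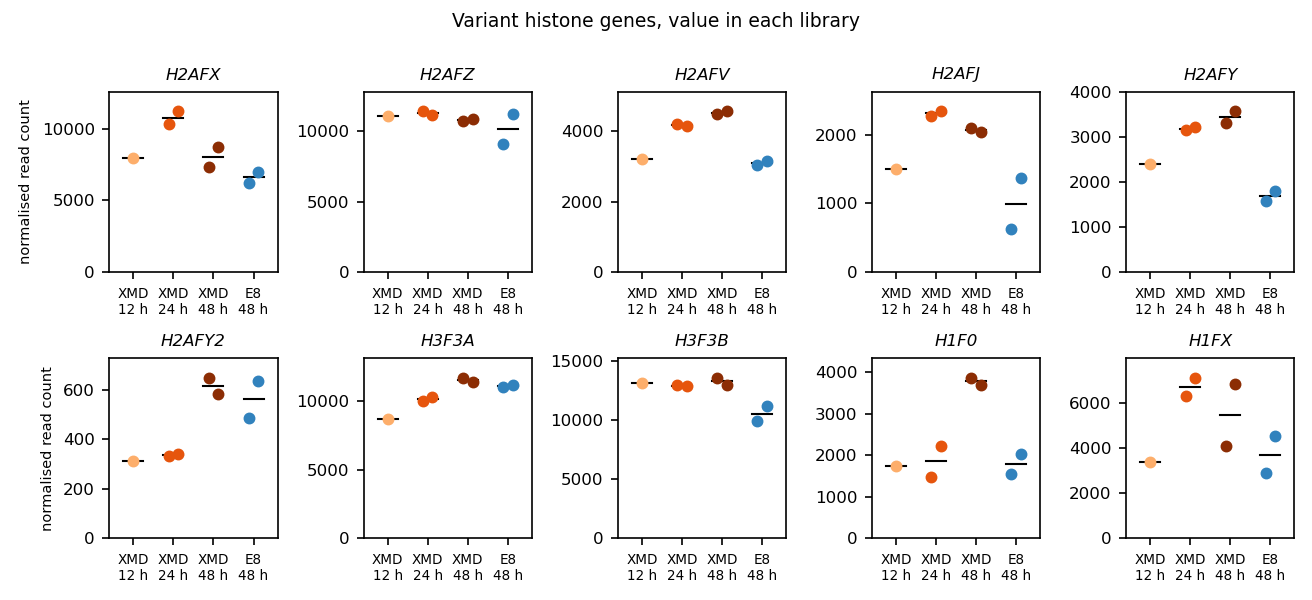
Normalised read count of the 10 variant histone genes in each library, with XMD892 for 12, 24 and 48 h and then E8; points are libraries, lines are group means, and each panel has its own axis from 0. H2AFY stood at 2405 or more with XMD892 and at 1803 or less in E8, H1F0 stood apart at 48 h, and H2AFY2 was lowest at 12 h and 24 h.

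Between 48 h and 24 h of XMD892, 2 of the 30 tested clustered genes were called lower and 0 higher, where 1.2% of all tested genes were called, 0.349% higher and 0.856% lower. They were HIST1H2AC (-0.86 ± 0.21, limma adjusted p = 0.046) and HIST1H4H (-0.87 ± 0.21, limma adjusted p = 0.039). The median over the 30 was -0.29, against -0.00 for all tested genes. Neither call held without XMD892 24 h replicate 2 or without either 48 h replicate. Of the 10 variants, 2 were called higher, H2AFY2 (0.87 ± 0.18, limma adjusted p = 0.012) and H1F0 (1.06 ± 0.18, limma adjusted p = 0.0019), and 0 lower. At an unadjusted p under 0.05, limma had 1 clustered gene higher and 1 variant lower, and edgeR and DESeq2 called 0 of either. The call of H2AFY2 was lost without 24 h replicate 1 or without either 48 h replicate, and that of H1F0 without 24 h replicate 1. Over all alternatives the log2 fold change lay between 0.79 and 0.95 for H2AFY2 and between 0.77 and 1.35 for H1F0.

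A list for histone RNA processing held 23 tested genes. It covers the stem-loop binding protein, the U7 particle, the cleavage factors and NPAT, and further genes such as NELFB, CDK9, NCBP1 and UPF1. Of the 23, 0 were called at 12 h, 1 was called higher at 24 h and 0 at 48 h, with none lower. The medians were 0.07, 0.16 and 0.07. Of all tested genes, 7.46%, 16.2% and 11.5% were called in either direction. At an unadjusted p under 0.05, limma had 3 higher and 0 lower at 12 h, 3 lower at 24 h, and 1 higher and 1 lower at 48 h, and edgeR and DESeq2 called 0 of these. The 1 was NELFB, a subunit of negative elongation factor, at 2670 at 12 h, 3846 and 3582 at 24 h, 3377 and 3131 at 48 h, and 2205 and 2899 in E8 (0.55 ± 0.15 at 24 h, limma adjusted p = 0.017). SLBP was at 1620 at 12 h, 1726 and 1484 at 24 h, 1517 and 1507 at 48 h, and 1361 and 1344 in E8. Each XMD892 library was above E8, but the log2 fold change of 0.26 ± 0.18, 0.24 ± 0.15 and 0.16 ± 0.15 was not called. NPAT, the coactivator of histone genes in S phase, was at 501 at 12 h, 449 and 354 at 24 h, 407 and 433 at 48 h, and 532 and 349 in E8, within the spread of the E8 libraries. CASP8AP2, which is needed for histone gene expression, was at 830 at 12 h, 623 and 581 at 24 h, 616 and 738 at 48 h, and 711 and 581 in E8, and was not called.

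Of 31 tested histone chaperones with CENPA, the centromeric H3, 0 were called at 12 h, 3 higher and 3 lower at 24 h, and 1 higher and 2 lower at 48 h, with medians of 0.10, -0.01 and 0.05. The 9.68% called in each direction at 24 h stand near the 8.66% higher and 7.56% lower of all tested genes, and the 3.23% higher and 6.45% lower at 48 h near 5.08% and 6.45%, so the counts are no result about the list. At 12 h, limma had 3 higher and 2 lower at an unadjusted p under 0.05, edgeR called 0 and DESeq2 1, which was lower. HIRA, which deposits H3.3, was at 639 at 12 h, 775 and 757 at 24 h, 559 and 635 at 48 h, and 472 and 552 in E8, and was called at 24 h (0.58 ± 0.16, limma adjusted p = 0.018). UBN2, a HIRA partner, was lower at 48 h, at 1120 and 1257 against 2372 and 1922 in E8 (-0.85 ± 0.15, limma adjusted p = 0.00089). ANP32E, the chaperone that removes H2A.Z, was also lower at 48 h, at 3109 and 3627 against 5129 and 4399 in E8 (-0.50 ± 0.14, limma adjusted p = 0.027). DNAJC9, a chaperone of H3 and H4, was higher at 48 h (0.50 ± 0.16, limma adjusted p = 0.041). TONSL, a reader of new H4, was called higher at 24 h (0.56 ± 0.14, limma adjusted p = 0.0094).

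Among the chaperones that serve replication, RBBP4, a subunit of chromatin assembly factor 1, was called lower at 24 h, at 4650 and 4577 against 6807 and 5945 in E8 (-0.46 ± 0.14, limma adjusted p = 0.026). ASF1B, CHAF1A and CENPA were not called. ASF1B was at 745 at 12 h, 850 and 841 at 24 h, 1067 and 952 at 48 h, and 662 and 817 in E8 (0.45 ± 0.16 at 48 h, limma adjusted p = 0.069). CHAF1A, a subunit of chromatin assembly factor 1, was at 3241 at 12 h, 3812 and 3622 at 24 h, 3101 and 3112 at 48 h, and 2850 and 3785 in E8. CENPA was at 471 at 12 h, 535 and 497 at 24 h, 538 and 645 at 48 h, and 511 and 609 in E8.

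Of 43 tested S phase genes, 0 were called at 12 h, 5 higher and 0 lower at 24 h, and 3 higher and 1 lower at 48 h, with medians of 0.12, 0.13 and 0.10. The 11.6% higher at 24 h and 6.98% higher at 48 h stand near the 8.66% and 5.08% of all tested genes. At an unadjusted p under 0.05, limma had 8 higher and 2 lower at 12 h and 2 lower at 24 h, and edgeR and DESeq2 called 0 of these. At 48 h, TYMS, which makes thymidylate, was at 1151 and 1365 against 739 and 821 in E8 (0.69 ± 0.16, limma adjusted p = 0.0059). TK1, the thymidine kinase of S phase, was at 2262 and 2184 against 1251 and 1623 (0.64 ± 0.15, limma adjusted p = 0.0086). POLD1, a subunit of DNA polymerase delta, was at 3633 and 3331 against 2047 and 2699 (0.57 ± 0.15, limma adjusted p = 0.019). E2F2 was lower, at 180 and 133 against 277 and 305 (-0.90 ± 0.20, limma adjusted p = 0.0057). At 12 h, where the clustered median was 1.36, the S phase median was 0.12. The values of clustered genes do not measure their total RNA, and the part of S phase in the histone results was not tested.

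Of 24 RNAs without a poly(A) tail, 4 were tested, and 0, 1 and 1 were called higher at 12 h, 24 h and 48 h, with none lower. None was higher at 12 h, or lower at any time, at an unadjusted p under 0.05 by limma or by edgeR or DESeq2. RN7SL3 was at 142 at 12 h, 782 and 269 at 24 h, 208 and 158 at 48 h, and 31.4 and 437 in E8 (1.95 ± 0.65 at 24 h, limma adjusted p = 0.045), although the 24 h libraries overlapped E8, and neither edgeR nor DESeq2 called it on whole reads. The 1 RNA those tools called at 24 h was RMRP, which limma did not (limma adjusted p = 0.11). RMRP, the RNA of the RNase MRP particle, was at 9.66 at 12 h, 4.17 and 39.3 at 24 h, 22.7 and 26.8 at 48 h, and 2.62 and 4.13 in E8 (2.57 ± 0.73 at 48 h, limma adjusted p = 0.024). RN7SL2 and RN7SL3 were far apart in the E8 libraries, in which the clustered sums were alike. A part of carry-over of RNA without a tail in the clustered values was not tested. Among markers, COL1A1, the collagen of fibroblasts, was at 1534 at 12 h, 882 and 851 at 24 h, 361 and 324 at 48 h, and 481 and 589 in E8. NES was at 18780 at 12 h, 13610 and 11830 at 24 h, 8001 and 8870 at 48 h, and 6531 and 9960 in E8. COL1A1 and NES were highest at 12 h, as the clustered sum was, but they were picked, and the other markers of their lists were not. COL1A2 and THY1, also of the fibroblast list, were lowest at 12 h, at 1333 and 3970. SIX3 and OTX2, of the neuroectoderm list, were at 456 and 137 at 12 h. Both were below both E8 libraries in every XMD892 library. The sum of 3 fibroblast markers lay between 6837 and 8569 with XMD892, against 6835 and 8079 in E8. That of 6 neuroectoderm markers, which is mostly NES, lay between 9030 and 19742, against 7708 and 11146. Their part in the histone results was not tested.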

How the data were processed

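The deposited table holds 1 normalised signal per gene and library: reads per gene, scaled by the authors with a size factor for each library, as the steps between its values show. Per the submitters' processing notes, Trimmomatic 0.36, STAR, featureCounts 1.5.3, DESeq2 1.26.0 and hg38 were used. The annotation, strand setting and treatment of shared reads are not given in the sources used here. Values were within 0.1 of whole reads in 100% of cases, so reads could be recovered. A further 2 columns match no sample and were not used.

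Genes with a mean of 10 or more were tested with limma 3.58.1 (R 4.3.3) on log2(value + 1), with 1 mean per group over all 7 libraries, a trended prior variance, 3 residual and 18.4 prior degrees of freedom, and Benjamini-Hochberg adjustment over all 16351 genes. The fold change of low genes is understated by the added 1. The lone 12 h library takes its spread from the other groups. The script was tested on simulated data. Members and lists were chosen with earlier results of these data known. Named are all variants, the clustered genes called in any comparison (12 library by library), the 3 highest uncalled ones, and per related list up to 4 called genes with 7 fixed ones. TONSL, RBBP4, NANOG, TDGF1, DPPA4, RN7SL2, SNORA73B, COL1A1, COL1A2, THY1, NES, SIX3, OTX2, NCAM1, SOX1 and KDR were added after their values were seen. Positions and stem-loops come from GENCODE 29, which holds all 58 members, and promoters from RefSeq. Alternatives included edgeR 4.0.16 and DESeq2 1.42.0 on whole reads, and a filter on the E8 mean.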

Additional observations from a re-analysis of the deposited data

Results flagged for a closer look

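Of the 43 tested histone genes, 4 differed between 48 h and 24 h of XMD892 by limma. The E8 controls are of 48 h only, so time with the compound and time in culture cannot be told apart here. Called higher were 4.65% and called lower 4.65%, against 0.349% and 0.856% of all 16351 tested genes. HIST1H2AC was lower at 48 h, at 246 and 263, than at 24 h, at 369 and 579, with a log2 fold change of -0.86 (limma adjusted p = 0.046). Over the 23 alternatives the adjusted p lay between 0.001 and 0.53, and the call was lost in 6. HIST1H4H was lower at 48 h, at 193 and 230, than at 24 h, at 325 and 458, with a log2 fold change of -0.87 (limma adjusted p = 0.039), and its call was lost in 4 (range of adjusted p 0.0011 to 0.47). H2AFY2 was higher at 48 h, at 650 and 584, than at 24 h, at 334 and 340, with a log2 fold change of 0.87 (limma adjusted p = 0.012), and its call was lost in 3 (7.9e-05 to 0.25). H1F0 was higher at 48 h, at 3878 and 3708, than at 24 h, at 1484 and 2222, with a log2 fold change of 1.06 (limma adjusted p = 0.0019), and its call was lost in 1 (3e-07 to 0.076). No group had 4 or more libraries, so a library far from the rest of its group was not looked for.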

How the results depend on the processing

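No result changed sign among those called. Of 52 calls of histone genes, edgeR kept 51 and DESeq2 43, both on whole reads. Replicate numbers did not pair the libraries (correlations of -0.04, -0.05 and -0.07), and with the replicate block 1 variant gene was called higher at 12 h, HIST1H2AE at 12 h and H2AFV at 24 h were no longer called, and all other histone calls held. With the trend along GC content taken out of each library, called genes numbered 2490 at 12 h, 3108 at 48 h and 378 between 48 h and 24 h (1219, 1884 and 197 as reported), with 1 variant higher at 12 h and 1 clustered gene higher between 48 h and 24 h. With that and without E8 replicate 1 there were 1901 calls at 12 h and 742 between 48 h and 24 h, with 1 variant and 1 clustered gene; without E8 replicate 2 there were 2622, 3180 and 717, with 2 variants and 1 clustered gene. A fit of only the groups compared gave 804 at 12 h and 1043 between 48 h and 24 h, 0 variants lower at 12 h, and between 48 h and 24 h 1 clustered gene higher and 1 variant lower. A filter at a mean of 50 gave 6 of 12 tested clustered genes higher at 48 h, where fewer genes were tested. Between 48 h and 24 h, 1 clustered gene was called lower after TMM rescaling, 1 after quantile normalization and 0 with the length trend removed.

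Leaving out each replicate in turn gave 1021 to 2941 called genes at 12 h, 1105 to 4917 at 24 h, 791 to 4057 at 48 h and 64 to 1045 between 48 h and 24 h. Clustered genes called higher numbered 7 to 14 at 24 h, 3 to 11 at 48 h and 0 to 1 between 48 h and 24 h, where 0 to 3 were lower. Variants called higher numbered 0 to 2 at 12 h, 3 to 7 at 48 h and 0 to 2 between 48 h and 24 h; those called lower numbered 0 to 1 at 24 h and 0 to 1 between 48 h and 24 h. The log2 ratio of the clustered sums at 24 h lay between 0.83 and 1.41. That of the variant sums lay between -0.019 and 0.20 at 12 h, between 0.24 and 0.46 at 24 h and between 0.23 and 0.46 at 48 h. Apart from the settings that use fewer genes or libraries, the cause of these shifts was not tested. Levels of a few reads, such as those of HIST1H2AI in E8, limit what can be called, and 1 library at 12 h gives no spread of its own.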
